A study of Mus musculus with 42 samples.

Results

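The genes described here are 10 genes in wide use as markers of endoderm, the germ layer that gives rise to yolk sac epithelium and to the gut, liver and pancreas. They were chosen by symbol (Sox17, Gata4, Gata6, Foxa2, Cxcr4, Dab2, Hnf4a, Afp, Ttr and Sox7) and matched to Ensembl gene identifiers. Of the 10, 7 were among the 14296 genes of the tables, and Sox17, Afp and Ttr were not analysed here because no row matched them. The tables hold the genes that passed the authors' minimum of more than 1 CPM (the share of a gene in the counted reads of a library, scaled to a fixed total) in at least 2 samples. For the CPM values given here, the counted reads of each library were first multiplied by a normalization factor, between 0.884 and 1.13. Foxa2 passed that minimum through 6 libraries, all between 78 h and 114 h, and Gata6 through 7 libraries, all between 96 h and 120 h, so both had to be higher late in the course than at their lowest. Hnf4a passed through 5 libraries, all between 0 h and 18 h, and so had to be higher early. Gata4, Cxcr4, Dab2 and Sox7 were above the minimum both at 0 h and at 120 h.

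The material was the W9.5 mouse embryonic stem cell (ESC) line on a 129X1/SvJ background, at passage 18, differentiated into embryoid bodies. Poly-A RNA was sequenced every 6 h from 0 h to 120 h, which gave 21 time points. Each time point had 1 library from each of 2 biological duplicates, replicate A and replicate B, so that 42 libraries were compared. There was a single cell line, no genotype or drug differed between the groups, and the labels vary by time and replicate. According to the paper, differentiation followed withdrawal of LIF. In comparisons with 0 h, time and that change of culture cannot be told apart. The labels call all libraries ESCs, and the pluripotency gene Pou5f1 stood at a mean of 9.98 log2 CPM at 0 h and 8.62 at 120 h.

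Endoderm is formed first as primitive endoderm beside the pluripotent epiblast, which matures into visceral and parietal endoderm, and later as definitive endoderm from cells that leave the primitive streak. GATA factors and SOX7 or SOX17 act early in primitive endoderm, DAB2 is an endocytic adaptor needed for its epithelial order, and HNF4A drives the genes of visceral endoderm and liver. FOXA2 and the chemokine receptor CXCR4 mark the anterior streak and definitive endoderm, although neither they nor the GATA factors are particular to endoderm. The libraries are of whole cultures, in which fewer cells of a type and less RNA per cell cannot be told apart.

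The counted reads per library ran from 10120972 to 51652434, with a median of 29692082. A level of 3 reads, about the upper limit that a count of 0 allows, was between 0.0571 and 0.316 CPM. In log2 CPM, the scale used below, 3 reads stood between -4.13 and -1.66. The members lay low in the range: the median over libraries was 378.5 reads for Dab2, 125 for Gata4, 26.5 for Cxcr4, 16 for Sox7, 11 for Gata6, 10 for Foxa2 and 7 for Hnf4a. Intervals and floors given below cover counting error only.

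The DNA just before starts annotated by RefSeq is shown for the members with a RefSeq promoter entry, since members with contrasting courses can then be set beside each other (assembly GRCm38.p6, 5′ to 3′ on the strand of the gene). Foxa2, Cxcr4, Dab2 and Hnf4a had such entries and Gata4, Gata6 and Sox7 had none. The windows are 250 bases long, less any bases inside a GENCODE vM21 exon of the gene, which were trimmed from either end. Capitals mark the letters of 6 motifs, searched on both strands except for the TATA box, which was searched on the sense strand. The GATA motif was spelled AGATAA and alternatively TGATAA, the forkhead motif TGTTTAC and alternatively TATTTAC, and the SOX motif ACAATGG and alternatively ACAATAG. The HNF4 motif was spelled CAAAGT and alternatively CAAAGG, the HNF1 motif was spelled GTTAAT, and the TATA box was spelled TATAAA. For Foxa2 the window before the outermost start (chr2:148046970-148047219, minus strand) and the one before the innermost start (chr2:148045465-148045714, minus strand) are given, with Cxcr4 (chr1:128592300-128592549, minus strand), Dab2 (chr15:6299539-6299787, plus strand) and the internal start of Hnf4a (chr2:163546943-163547154, plus strand). The bases just after that internal RefSeq start were in no GENCODE vM21 transcript of Hnf4a.
Foxa2, outermost: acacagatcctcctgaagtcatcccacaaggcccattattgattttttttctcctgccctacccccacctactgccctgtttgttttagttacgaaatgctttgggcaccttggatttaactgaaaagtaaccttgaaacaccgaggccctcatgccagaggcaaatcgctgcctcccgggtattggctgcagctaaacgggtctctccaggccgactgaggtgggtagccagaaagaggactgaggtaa
Foxa2, innermost: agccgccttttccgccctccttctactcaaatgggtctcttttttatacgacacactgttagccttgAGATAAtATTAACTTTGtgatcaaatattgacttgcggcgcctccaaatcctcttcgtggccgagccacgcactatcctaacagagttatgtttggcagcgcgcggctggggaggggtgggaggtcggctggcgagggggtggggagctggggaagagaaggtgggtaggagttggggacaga
Cxcr4: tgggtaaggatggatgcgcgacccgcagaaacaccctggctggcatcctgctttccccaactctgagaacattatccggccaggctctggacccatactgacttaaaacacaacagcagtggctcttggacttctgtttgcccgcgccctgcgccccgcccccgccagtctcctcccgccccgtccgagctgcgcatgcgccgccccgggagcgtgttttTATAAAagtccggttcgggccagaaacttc
Dab2: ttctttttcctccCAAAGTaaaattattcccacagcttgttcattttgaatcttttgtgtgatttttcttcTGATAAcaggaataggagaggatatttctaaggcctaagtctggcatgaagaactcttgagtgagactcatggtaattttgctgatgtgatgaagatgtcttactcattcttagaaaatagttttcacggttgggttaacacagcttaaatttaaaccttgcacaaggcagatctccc
Hnf4a, internal: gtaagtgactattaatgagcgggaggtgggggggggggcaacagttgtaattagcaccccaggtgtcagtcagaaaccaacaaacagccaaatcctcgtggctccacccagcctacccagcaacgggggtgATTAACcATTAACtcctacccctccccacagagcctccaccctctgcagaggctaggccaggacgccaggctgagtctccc

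The outermost Foxa2 window held none of these letters. The innermost one held a GATA match at -183, and overlapping HNF1 and HNF4 matches at -176 and -172, counted from the start. Dab2 had an HNF4 match at -237 and a GATA match at -179, Cxcr4 a TATA box at -30, and the internal Hnf4a start a pair of HNF1 matches at -81 and -74. Of the windows not printed, the outermost Hnf4a window held a GATA match at -52 that reaches into an annotated exon, the internal Dab2 window an HNF1 match at -65 inside an exon, and the middle Foxa2 window none. GATA letters thus occurred before starts of Foxa2, Dab2 and Hnf4a, whose courses differed. Over all 32851 windows of the table, 16.6% held the GATA letters, 27.8% HNF4, 6.43% HNF1, 7.59% the TATA box, 5.76% forkhead and 5.03% SOX. A match describes the letters only. Binding was not measured, and the values below are summed over all transcripts of a gene, so that the starts in use cannot be told apart.

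The first question was whether the members changed over the course. Each of the 7 passed the F test over the 21 time points (limma, adjusted p below 0.0001, the threshold of the study, here and below for every gene called changed). Of all genes 74.6% passed, so that this share is not particular to the members. Adjusted p was 3.55e-21 for Dab2, 1.31e-14 for Sox7, 3.42e-14 for Gata4, 5.59e-08 for Foxa2, 2.22e-07 for Gata6, 8.40e-06 for Cxcr4 and 9.92e-05 for Hnf4a. With precision weights for the read depth, Foxa2 (adjusted p = 4.85e-04) and Cxcr4 (adjusted p = 0.00144) no longer passed. Hnf4a, which lay at the threshold, did not pass in a fit with no mean-variance trend (adjusted p = 0.000252) or with the letter as a replicate block (adjusted p = 0.000120), and Cxcr4 did not on the log2(CPM + 1) scale (adjusted p = 0.000168).

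**Figure D1:**
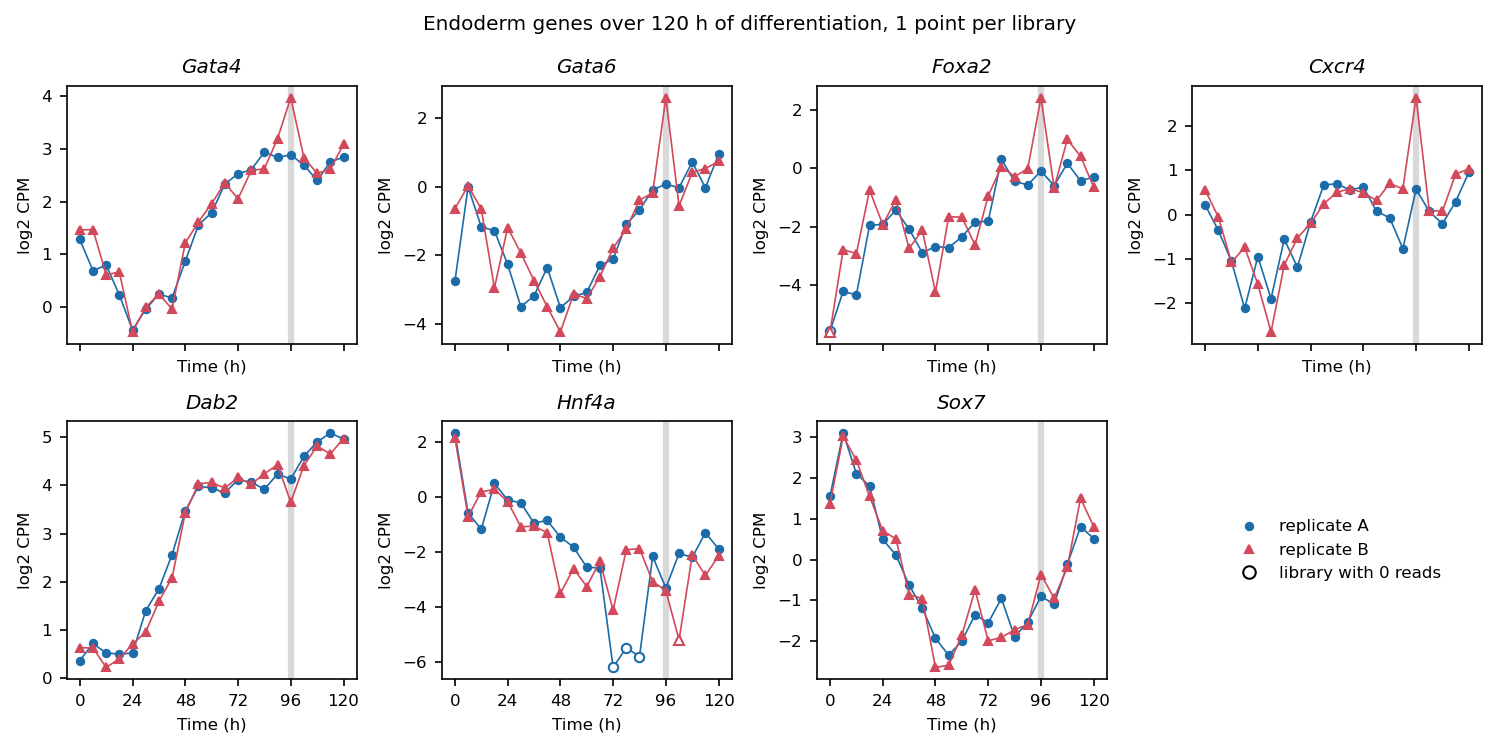
Level of each endoderm gene (log2 CPM, vertical axes of differing range) against time in h, with circles for replicate A, triangles for replicate B and open symbols for libraries with 0 reads. Dab2 climbed from about 24 h, Gata4 dipped and then rose past its start, and Hnf4a was highest at 0 h. Sox7 peaked at 6 h, was lowest at 54 h and was higher again at the end. At 96 h (grey band) replicate B stood above replicate A in Gata4, Gata6, Foxa2 and Cxcr4.

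Gata4 (ENSMUSG00000021944.9, chr14:63198922-63271692 on GRCm38, minus strand) encodes a zinc finger factor of primitive endoderm that is also central to heart development. It fell in the first day and then rose past its starting level. In replicates A and B it stood at 1.28 and 1.46 log2 CPM at 0 h, -0.44 and -0.47 at 24 h, 0.87 and 1.22 at 48 h, 2.53 and 2.05 at 72 h, and 2.85 and 3.09 at 120 h. Neither 24 h library reached either 0 h library, and both 120 h libraries lay above both 0 h libraries. The change was -1.83 ± 0.26 (log2, SE, n = 2 per time point, here and below) from 0 h to 24 h (adjusted p = 1.36e-06), a 3.55-fold fall, and it then rose 2.82-fold to 48 h (adjusted p = 4.86e-05). From 48 h to 120 h it rose by 1.92 ± 0.26 (adjusted p = 4.92e-07), 3.79-fold, and at 120 h it was 3.01-fold above 0 h (adjusted p = 8.66e-06).

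Against 0 h, Gata4 was lower at 24, 30 and 42 h and higher at 84, 90, 96, 102, 114 and 120 h. With precision weights the fall to 24 h (adjusted p = 0.00120) and the rise from 24 h to 48 h (adjusted p = 0.0130) lost their calls. The latter was also lost on the log2(CPM + 1) scale (adjusted p = 0.00253) and without any of the 4 libraries of 24 h and 48 h (adjusted p from 0.000289 to 0.00298). The rise above 0 h at 120 h lost its call without 0 h replicate A (adjusted p = 0.000426), without 0 h replicate B (adjusted p = 0.000122) or without 120 h replicate B (adjusted p = 0.000518).

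Gata6 (ENSMUSG00000005836.8, chr18:11052064-11085635, plus strand), the GATA factor that acts first in primitive endoderm, was near 0 log2 CPM at 6 h, lowest at 48 h, and then rose. It stood at -2.75 and -0.64 log2 CPM at 0 h (3 and 15 reads), -0.00 and 0.03 at 6 h, -3.52 and -4.23 at 48 h (2 reads and 1 read), -2.11 and -1.79 at 72 h, and 0.95 and 0.74 at 120 h (53 and 40 reads). The 0 h libraries lay far apart, and no difference from 0 h was called at any of the 20 later times. The change from 48 h to 120 h was 4.72 ± 0.69 (log2, adjusted p = 1.67e-06). In pooled reads, 93 at 120 h against 3 at 48 h gave a CPM ratio of 34.0, with an exact 95% counting interval from 11.3 to 168. The call was lost with precision weights (adjusted p = 0.000607), on the log2(CPM + 1) scale (adjusted p = 0.000160) and without 48 h replicate B (adjusted p = 0.000138). Against 48 h, Gata6 was called higher at each time from 90 h to 120 h.

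Foxa2 (ENSMUSG00000037025.5, chr2:148042877-148046969, minus strand) encodes a forkhead pioneer factor of definitive endoderm, node and floor plate. Both 0 h libraries had 0 reads. It stood at -1.92 and -1.92 log2 CPM at 24 h (9 and 7 reads), -2.67 and -4.23 at 48 h (4 reads and 1 read), 0.30 and 0.06 at 78 h (27 and 25 reads) and -0.30 and -0.64 at 120 h (22 and 15 reads). Levels were low early and higher late, and apart from 96 h replicate B (140 reads) no library had more than 55 reads. The lower mean at 48 h than at 24 h was not called (limma, -1.53, adjusted p = 0.0974, and 0.347 with precision weights).

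Relative to the limit of 3 reads per 0 h library, the observed mean CPM of Foxa2 was 1.98-fold higher at 24 h, 8.88-fold at 78 h and 5.63-fold at 120 h. The limit allows for counting error at 0 h, and these ratios leave out that of the later reads. It was called higher than 0 h at 13 of the 20 later times, among them 18, 24 and 30 h and every time from 72 h on. The fitted size of these changes depends on the offset given to a count of 0, and the calls at 24 h and 120 h were lost in other fits. With precision weights adjusted p was 0.0188 at 24 h and 0.000935 at 120 h, and on the log2(CPM + 1) scale 0.363 and 0.0239. Leaving out any of the 4 libraries of 0 h and 24 h also ended the 24 h call (adjusted p from 0.00103 to 0.00121). The difference between 48 h and 120 h was 2.98 ± 0.69 (adjusted p = 0.000604), which did not pass.

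Sox7 (ENSMUSG00000063060.5, chr14:63943673-63950732, plus strand), a SOX factor of primitive endoderm and of blood vessel and blood precursors, was highest at 6 h, lowest at 54 h and higher again at the end. It stood at 1.56 and 1.37 log2 CPM at 0 h, 3.11 and 3.02 at 6 h, 0.49 and 0.71 at 24 h, -1.93 and -2.65 at 48 h (7 and 4 reads), -0.90 and -0.37 at 96 h, and 0.52 and 0.81 at 120 h. Both 6 h libraries lay above both 0 h libraries, by 1.60 ± 0.33 in the mean (3.03-fold), with an adjusted p of 0.000185 that missed the threshold. That difference passed with precision weights (adjusted p = 4.40e-08), with no mean-variance trend (3.55e-05), with all libraries set to the same median (8.29e-05) and on the log2(CPM + 1) scale (8.77e-09).

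Sox7 fell by 3.76 on the log2 scale from 0 h to 48 h (SE 0.33, adjusted p = 2.38e-10), 13.5-fold, and 7.43-fold between 24 h and 48 h (adjusted p = 1.09e-07). It was lower than at 0 h at each of the 12 times from 36 h to 102 h. From 48 h to 120 h it rose by 2.96 ± 0.33 (adjusted p = 2.59e-08), 7.76-fold, and the mean at 120 h was 0.80 below that at 0 h (adjusted p = 0.0453, not called).

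Hnf4a (ENSMUSG00000017950.10, chr2:163506808-163572910, plus strand), the nuclear receptor of visceral endoderm and hepatocytes, was highest in the undifferentiated cultures. It stood at 2.34 and 2.17 log2 CPM at 0 h (119 and 108 reads), -0.57 and -0.71 at 6 h (18 and 10 reads), -0.10 and -0.16 at 24 h, -1.45 and -3.50 at 48 h (10 and 2 reads) and -1.88 and -2.14 at 120 h (7 and 5 reads). The 0 h libraries stood above every later one. There were 4 libraries with 0 reads, at 72, 78 and 84 h in replicate A and at 102 h in replicate B, and the SE of its changes, 1.07, was the largest of the 7 members.

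The change of Hnf4a was -2.90 from 0 h to 6 h (adjusted p = 0.0220) and -4.26 from 0 h to 120 h (adjusted p = 0.00140), and neither passed. Lower levels than at 0 h were called at 72, 78, 84, 96 and 102 h. With precision weights, which give less weight to values of few reads, the differences passed at 6 h (adjusted p = 4.05e-05) and 120 h (adjusted p = 3.87e-06), and on the log2(CPM + 1) scale they passed as well (4.56e-10 and 5.22e-12). The same held for 24 h (adjusted p = 3.87e-05 with weights and 6.22e-09 on the log2(CPM + 1) scale) and for 48 h (1.67e-06 and 4.30e-12), neither of which passed on the log2 CPM scale without weights. Between 48 h and 120 h the difference was 0.46 ± 1.07 (adjusted p = 0.736).

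Cxcr4 (ENSMUSG00000045382.6, chr1:128588199-128592293, minus strand), the receptor for CXCL12 on migrating definitive endoderm and mesoderm, had its lowest levels between 12 h and 42 h and then came back. It stood at 0.22 and 0.56 log2 CPM at 0 h, -1.06 and -1.09 at 12 h, -0.95 and -1.58 at 24 h, -1.91 and -2.66 at 30 h (7 reads and 1 read), -0.17 and -0.20 at 48 h, 0.62 and 0.49 at 72 h, 0.57 and 2.65 at 96 h, and 0.95 and 1.03 at 120 h. The fall to 30 h was the only call against 0 h (-2.68 ± 0.50, adjusted p = 5.43e-05, where 14.9% of all genes were lower), and it rests on 8 reads at 30 h. The change from 0 h to 24 h was -1.66 ± 0.50 (adjusted p = 0.00676) and did not pass. At 120 h the level was 1.18 ± 0.50 above 48 h (adjusted p = 0.0473) and 0.60 ± 0.50 above 0 h (adjusted p = 0.327), and neither passed.

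Dab2 (ENSMUSG00000022150.10, chr15:6299788-6440712, plus strand), the endocytic adaptor of primitive and visceral endoderm, gave the clearest rise. It stood at 0.37 and 0.64 log2 CPM at 0 h (30 and 37 reads), 0.52 and 0.71 at 24 h, 1.85 and 1.60 at 36 h, 3.47 and 3.43 at 48 h, 4.12 and 4.16 at 72 h, and 4.96 and 4.97 at 120 h (858 and 756 reads). The duplicates stayed within 0.48 of each other at every time, and each 48 h library lay above each library up to 42 h. From 24 h to 48 h Dab2 rose by 2.83 ± 0.18 (adjusted p = 2.75e-12), 7.12-fold, and from 48 h to 120 h by 1.51 ± 0.18 (adjusted p = 7.38e-08), 2.85-fold. At 120 h it was 22.0-fold above 0 h (adjusted p = 3.08e-17), and it was called higher than 0 h at all 15 times from 36 h on. None of the alternatives tried for these 3 changes ended a call.

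**Figure D2:**
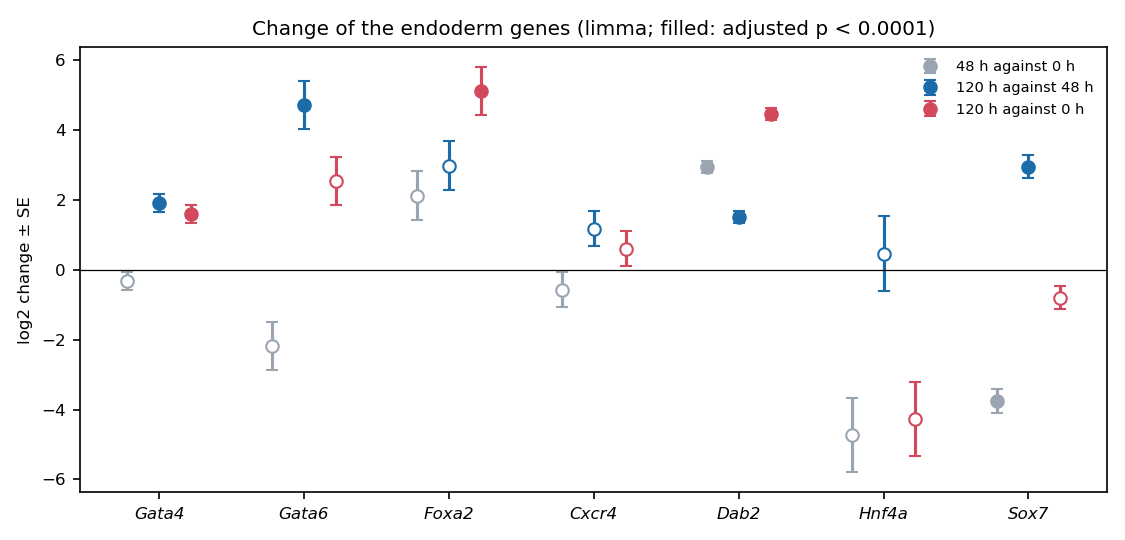
Fitted log2 change of each endoderm gene (points, with bars of 1 SE) from 0 h to 48 h, from 48 h to 120 h and from 0 h to 120 h, filled where adjusted p was below 0.0001. From 48 h to 120 h Gata4, Gata6, Dab2 and Sox7 were called higher, of which Gata6 entered the tables through late libraries, and from 0 h to 48 h Dab2 was called higher and Sox7 lower; the values of Foxa2 against 0 h depend on the offset given to 0 reads.

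Taken by interval, 2 of the 7 members were called between 0 h and 24 h (Foxa2 higher, Gata4 lower), where 22.7% of all genes were called. With precision weights the 1 member called in that interval was Hnf4a, lower. Between 24 h and 48 h 3 were called (Gata4 and Dab2 higher, Sox7 lower), against 8.97% of all genes. Between 48 h and 120 h Gata4, Dab2 and Sox7 were called higher, 3 of the 4 members above the minimum of the tables both at 0 h and at 120 h, against 14.2% of all genes higher and 11% lower. The median change over those 4 was 1.72, beside 0.00 over all genes. Those 4 were picked for their level at 0 h and at 120 h, not at 48 h, which favours a rise here. Their calls and median in this interval are therefore not read against all genes. Gata6 was called higher too, which its entry through late libraries favours, so it is not read against the background. From 0 h to 48 h Dab2 was called higher and Sox7 lower, where 30.4% of all genes were called, and Hnf4a was also lower with precision weights and on the log2(CPM + 1) scale. From 0 h to 120 h Gata4 and Dab2 were higher, 2 of those 4, where 12.9% of all genes were, and the median change of the 4 was 1.10, beside -0.02 over all genes. Foxa2 was higher as well, with an entry through late libraries. Setting all libraries to the same median would move the changes by 0.14 from 0 h to 48 h and by -0.15 from 48 h to 120 h, less than the SE of every member.

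Shorter intervals gave few calls. No member was called between 0 h and 6 h, where 26.3% of all genes were called; 4 members had an unadjusted p below 0.05 there. Precision weights and the log2(CPM + 1) scale each called 2 members in that interval, Hnf4a lower and Sox7 higher. No member was called between 48 h and 72 h (9.38% of all genes; 5 members with an unadjusted p below 0.05), between 72 h and 96 h (3.39%; 5 members) or between 96 h and 120 h (1.94%; 3 members). The last of these called Dab2 with precision weights (adjusted p = 3.37e-06) and with the replicate block (adjusted p = 7.56e-05). Over the 20 steps of 6 h, 0 of 140 gene and step pairs were called (1.77% over all genes), and 34 had an unadjusted p below 0.05. Against 0 h, 55 of 140 pairs were called, 34 higher and 21 lower (13.1% and 13.4% over all genes), and 35 without 0 h replicate A. Against 48 h, 23 of 84 pairs were called and all were higher (9.16% over all genes). That count was 14 without 48 h replicate A, 12 without 48 h replicate B and 14 with precision weights. Foxa2, Gata6 and Hnf4a, whose entry fixed part of their course, are in both counts. Over the other 4 members there were 21 higher and 16 lower of 80 pairs against 0 h, and 15 higher of 48 against 48 h. The latter count is favoured by picking those 4 for their level at 120 h and not at 48 h.

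Levels can be compared between genes only per length of exon, as log2 CPM per kb. On that scale the level at 0 h was -0.02 for Hnf4a, -0.26 for Sox7, -0.47 for Cxcr4, -0.59 for Gata4, -2.37 for Dab2 and -4.40 for Gata6, with Foxa2 at 0 reads. Sox7 and Cxcr4, and Cxcr4 and Gata4, overlapped in the range of their duplicates. At 48 h Dab2 led with 0.57, followed by Gata4 (-0.92) and Cxcr4 (-1.04), whose ranges overlapped, then Sox7, Foxa2 and Hnf4a (-4.01, -4.70 and -4.74), which overlapped in turn, and Gata6 (-6.58). At 120 h the order was Dab2 (2.09), Gata4 (1.0), Cxcr4 (0.14), Sox7 (-1.06), Foxa2 (-1.71), Gata6 (-1.85) and Hnf4a (-4.28), in which only Foxa2 and Gata6 overlapped. Hnf4a thus went from the first place to the last, and Dab2 from the fifth to the first.

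Among the time points, 96 h had the most genes that differed between the duplicates by more than 1 log2 unit. Replicate B stood above replicate A by that margin in 4 of the 7 members, where 5.42% of all genes did so and 8.12% differed as much in the other direction. Gata6 had 0.08 log2 CPM in replicate A (36 reads) and 2.60 in replicate B (160 reads). Foxa2 had -0.09 and 2.41 (32 and 140 reads), Cxcr4 0.57 and 2.65 (51 and 165 reads) and Gata4 2.89 and 3.97 (256 and 414 reads). The differences were thus 5.76-fold, 5.66-fold, 4.21-fold and 2.12-fold. At 90 h and 102 h these 4 genes were within 0.56 of each other between the duplicates, apart from Cxcr4 at 90 h (-0.77 and 0.58). Sox7 differed by 0.54, Hnf4a by -0.10 and Dab2 by -0.48 at 96 h. With 1 library on each side no test was possible.

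**Figure D3:**
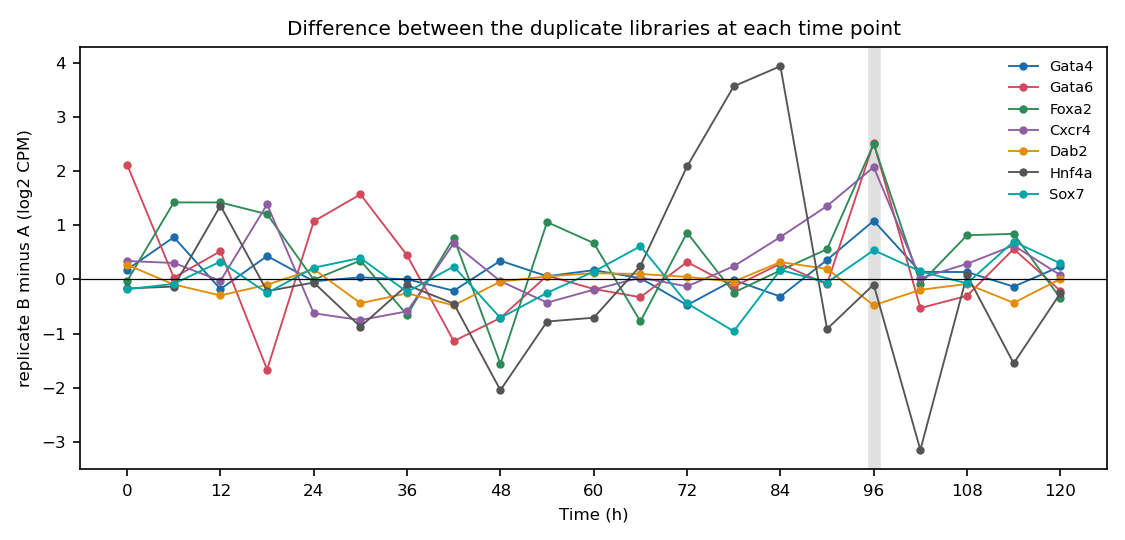
Difference between the duplicates, replicate B minus replicate A in log2 CPM, for each endoderm gene against time in h. At 96 h (grey band) Gata6, Foxa2 and Cxcr4 stood more than 2 above 0 together with Gata4 at 1.08; the wide differences of Hnf4a at 72 to 84 h and 102 h go with counts of 0 in the library with the lower value.

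Calls that used the 96 h time point were computed again without replicate B, an alternative chosen after the values were seen. Foxa2 then lost its call for 96 h against 48 h (4.61 and adjusted p = 2.82e-06 with both libraries, 3.36 and adjusted p = 4.66e-04 without). With both libraries that call was also lost with precision weights (adjusted p = 3.32e-04) and held on the log2(CPM + 1) scale (1.66, adjusted p = 1.30e-05). For 96 h against 0 h, the change of Hnf4a was -5.61 with both libraries and -5.56 without replicate B. With 1 library fewer it no longer passed. Of all genes 10.7% were called lower there. Entry through early libraries favours a fall of Hnf4a, so its call is not read against that share. Gata6 (5.22 with both libraries, 3.95 without) and Gata4 (2.39 and 1.84) kept their calls against 48 h, where 12.9% of all genes were higher. Neither is read against that share, since Gata6 entered through late libraries. Gata4 is among the 4 members picked for their level at 0 h and at 120 h, not at 48 h. The same library also stood more than 1 log2 unit higher in 6 of 6 early mesoderm genes, 6 of 11 definitive and anterior endoderm genes, 3 of 5 trophoblast genes, 2 of 3 axial mesoderm genes, 2 of 5 cardiac genes, 3 of 19 Nodal and FGF genes and 2 of 8 pluripotency genes. Of 12 primitive and parietal endoderm genes 3 were higher and 1 lower by that margin, of 8 visceral endoderm genes 2 and 4, and of 5 neuroectoderm genes 1 and 1. The summed level of early mesoderm genes at 96 h was 5.94 log2 CPM in replicate A and 8.02 in replicate B. Most of that sum was the gene T, which alone stood at 5.69 and 7.83. The summed level of definitive and anterior endoderm genes was 8.82 and 9.63. That sum rests on the more abundant genes of the list, which did not all go up: Otx2 stood at 6.93 and 6.06. The part of these cell types in the 96 h values of the members was not tested.

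The members did not move as a block. Pearson's r over the 21 time points, a description within each replicate whose points share libraries, was highest for Gata4 with Dab2 (0.84 in replicate A and 0.78 in replicate B) and for Gata4 with Cxcr4 (0.71 and 0.87). Gata4 with Gata6 gave 0.60 and 0.61, and Foxa2 with Gata6 0.51 and 0.56. Dab2 ran opposite to Hnf4a (-0.65 and -0.80) and to Sox7 (-0.65 and -0.62), and Hnf4a and Sox7 ran together (0.59 and 0.63).

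The genes with the course most like each member were ranked by the lower of the r values of the 2 replicates, over 21 time points, among the 12911 genes whose mean over libraries was 0 log2 CPM or more. For Dab2 they were Cdcp1 (0.98), Amot (0.98) and Uggt2 (0.98). For Sox7 they were Cavin1 (0.96), Cmtm7 (0.94) and Tead4 (0.94), and for Gata4 Hexa (0.96), Sp6 (0.96) and Grina (0.95). The matches of the sparser genes were looser: Tfap2c (0.89), Tfap2a (0.88) and S100a11 (0.88) for Gata6, Axin2 (0.83), Sfmbt2 (0.83) and Alox15 (0.82) for Foxa2, and Phf11d (0.82), Efhb (0.81) and Fxr2 (0.81) for Hnf4a. For Cxcr4, Tmem144 (0.82) and Arl8a (0.82) were among the 3 closest.

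The other genes of endoderm, taken from fixed lists, give the setting. Over all genes 14.2% rose and 11% fell from 48 h to 120 h, with a median change of 0.00. Listed genes that passed the minimum through late libraries had to be higher late than at their lowest. List shares and medians are therefore not read against all genes. Among the risers named from the endoderm and signal lists, Dkk1 and Cited1 had means below 0 log2 CPM at both 0 h and 48 h, and the others did not. Of 14 genes of primitive and parietal endoderm 12 were measured; from 48 h to 120 h 8 rose and 0 fell, with a median change of 2.05. Krt19, a keratin of simple epithelia, went from 1.82 and 1.81 to 7.23 and 7.30 log2 CPM (adjusted p = 4.47e-19). Pdgfra, the receptor that marks primitive endoderm and also mesoderm, went from -1.20 and -1.29 to 2.25 and 2.02 (adjusted p = 2.82e-07). In the first interval, from 0 h to 48 h, 7 of the 12 fell and 2 rose, with a median of -1.36, where 15.6% of all genes fell and 14.8% rose with a median of 0.01. The list also holds basement membrane genes, collagens and laminins, that other cells use.

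Of 18 genes of visceral endoderm 8 were measured, and 10 were not analysed here, among them Apoa1, Apoa4, Fga, Fgb, Trf and Ihh. From 48 h to 120 h 3 of the 8 rose and 0 fell, with a median change of 1.26. Lrp2, the endocytic receptor megalin, which works with the adaptor encoded by Dab2, went from 6.90 and 6.69 to 9.15 and 8.98 log2 CPM (adjusted p = 1.24e-05). Cited1, a transcriptional co-regulator, went from -2.14 and -2.36 to 3.33 and 3.59 (adjusted p = 1.23e-13). Over the whole course, from 0 h to 120 h, 6 of the 8 rose (12.9% of all genes). Listed genes with low levels at 0 h, such as Cited1 with a mean of -2.12 log2 CPM, could enter only through later libraries. That favours a rise, so this count is not read against all genes either.

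Of 13 genes of definitive and anterior endoderm 11 were measured, and Foxa1 and Cer1 were not analysed here. From 48 h to 120 h 3 rose and 1 fell, with a median change of 1.02. Dkk1, a secreted antagonist of Wnt signalling, went from -4.26 and -3.50 to 2.44 and 2.55 log2 CPM (adjusted p = 6.94e-07), and Prdm1, a transcriptional repressor, from 2.69 and 2.73 to 3.81 and 3.95 (adjusted p = 3.55e-05). Otx2, a homeobox factor of the anterior epiblast and visceral endoderm, fell from 7.41 and 7.44 to 6.14 and 5.99 (adjusted p = 1.83e-07).

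All 19 listed genes of the Nodal and FGF signals that precede endoderm were measured; from 48 h to 120 h 6 rose and 4 fell, with a median change of -0.23. Furin, a protease that processes Nodal, rose by 2.54 ± 0.22 (adjusted p = 1.38e-10) and Fgf8 by 2.09 ± 0.35 (adjusted p = 1.14e-05). Lefty1, an antagonist of Nodal, fell by 2.34 (adjusted p = 7.35e-08) and Fgf4, a ligand made by pluripotent cells, fell by 2.12 (adjusted p = 1.28e-15).

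Markers of other cell types moved in the same interval. From 48 h to 120 h, 5 of 6 measured early mesoderm genes rose, as did 3 of 5 trophoblast genes, 2 of 5 cardiac genes and 2 of 3 axial mesoderm genes. The lists share genes, in these counts and in those at 96 h. Hand1 is in the early mesoderm and cardiac lists, and Pdgfra in the early mesoderm and the primitive and parietal endoderm lists. Of 5 neuroectoderm genes 2 rose and 1 fell, and of 8 pluripotency genes 5 rose and 1 fell. T, the streak factor Brachyury, went from -1.93 and -0.96 to 5.12 and 4.81 log2 CPM, and Gata3, a trophoblast GATA factor, from -3.52 and -3.50 to 3.35 and 3.39. Tfap2c, also the gene most like Gata6, went from 0.43 and 0.11 to 6.37 and 6.44. Hand1, a factor of extraembryonic and cardiac mesoderm, where Gata4 and Gata6 are also used, went from -2.67 and -1.91 to 2.17 and 1.79. Foxf1, Actc1, Chrd, Nog, Sox1, Nes, Klf4 and Dppa3 of the same lists also rose, and Sox3 and Pou5f1 fell. Mean levels of T, Gata3, Hand1, Foxf1, Actc1 and Nog were below 0 log2 CPM at both 0 h and 48 h. Those of Tfap2c, Chrd, Sox1, Nes, Klf4 and Dppa3 were above it at 0 h. Entry through late libraries favours a rise, so the counts of these lists are not read against all genes. The part of these cell types in the rise of Gata4, Gata6, Sox7 and Dab2 was not tested.

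**Figure D4:**
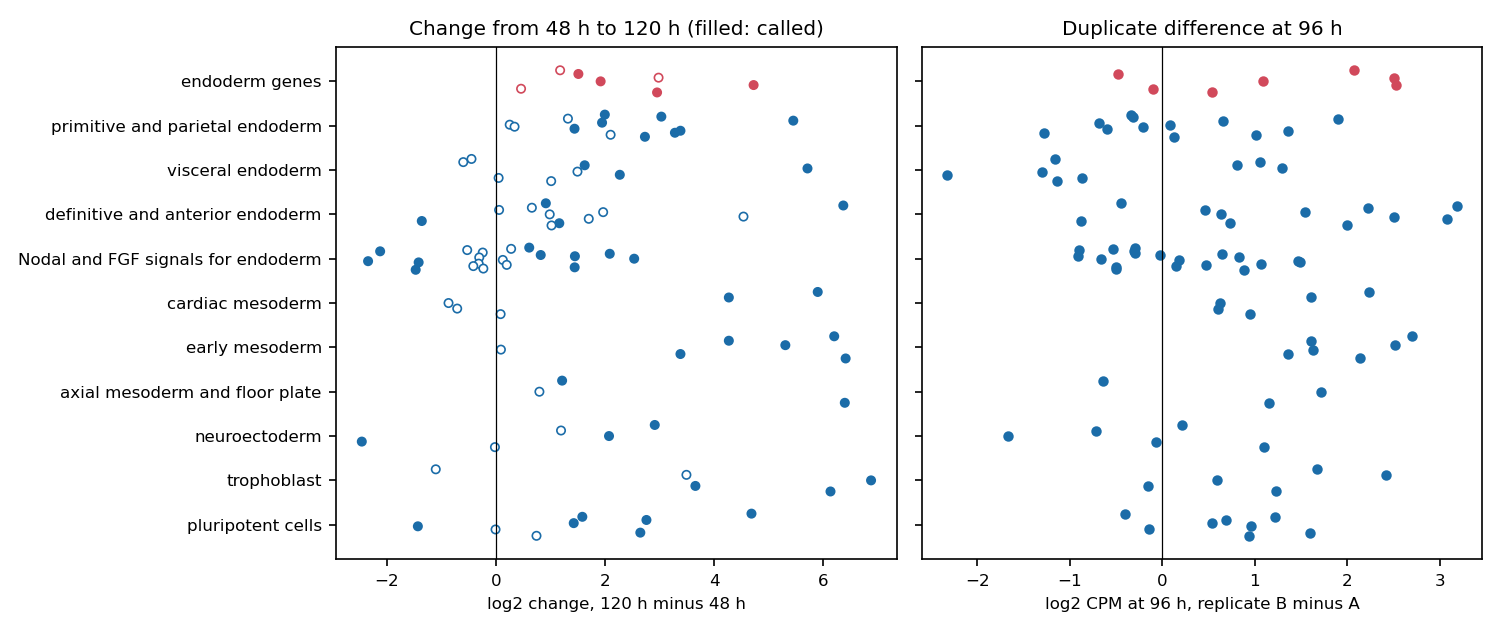
Left, log2 change from 48 h to 120 h of each measured gene by list, filled where adjusted p was below 0.0001; right, replicate B minus replicate A at 96 h in log2 CPM for the same genes, with the endoderm genes in red. The early mesoderm genes lie to the right in both panels, with 5 of 6 called on the left and 6 of 6 above 1 on the right.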

How the data were processed

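RNA was prepared with a strand-specific poly-A kit. Per the labels and methods, the authors used Trim Galore for trimming, TopHat2 for alignment (mm10), HTSeq for counts on GENCODE vM2, and edgeR and limma (voom) for normalization. Versions and the strand setting of the counting are not given in the sources used here, so reads of Gata6, Dab2 and Hnf4a cannot be told apart from those of genes annotated on the opposite strand. The values deposited by the authors are log2 CPM, 1 table per library, with an offset of 0.5 reads, and whole reads were recovered from them to within 2.91e-08 of a read.

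By gene identifier, 14177 of the 14296 rows were found in GENCODE vM21 (GRCm38) and 119 were not. Differences were tested with limma 3.58.1 in R 4.3.3 (lmFit, eBayes with a trend) on the deposited values, in 1 fit of 21 time points over 42 libraries (21 residual degrees of freedom), with Benjamini-Hochberg adjustment over all genes within each contrast and a threshold of 0.0001. Duplicates were biological according to the methods of the study, so p-values rest on the spread between 2 cultures. That spread is pooled for each gene over the 21 time points and moderated over all genes. It is not the spread at the compared times alone. The letters A and B each name a replicate time series in the study and so tie libraries together. Over 210 pairs of time points the deviations of same-letter libraries correlated at 0.08 on average, from -0.47 to 0.60, with 47.1% above 0.1. The main fit had no replicate block. The script was tested on simulated data. Members and lists were chosen with earlier results of these data known. The text names every measured member, the 3 genes most like each, and from each other list up to 2 genes that rose and 2 that fell most from 48 h to 120 h among those called with the same sign in both replicates; Brachyury, Gata3, Tfap2c and Hand1 stand for the other cell types. A gene that this rule names is not reported here. The alternatives were a replicate block, voom precision weights, no trend, a minimum mean of 0 log2 CPM, equal library medians, log2(CPM + 1), adjusted p < 0.05 and leaving out single libraries.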

Additional observations from a re-analysis of the deposited data

How the results depend on the processing

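A minimum mean of 0 log2 CPM kept only Gata4 and Dab2, so by construction it gave 2 members over the course, 1 from 0 h to 24 h, 2 from 48 h to 120 h, 24 pairs against 0 h and 12 against 48 h. At adjusted p < 0.05 the called members were 4 at 6 h against 0 h, 4 at 24 h against 0 h, 5 at 72 h against 48 h, 4 at 96 h against 72 h, 2 at 120 h against 96 h and 6 at 120 h against 0 h, with 101 pairs against 0 h, 49 against 48 h and 11 steps of 6 h. For 6 h against 0 h, where 0 members were called, precision weights and log2(CPM + 1) called 2 each, and no trend and equal medians 1 each; the counts over the 20 steps were the same. Precision weights called 1 member at 24 h against 0 h (Hnf4a, in place of Gata4 and Foxa2), 1 at 120 h against 96 h and 14 pairs against 48 h, and log2(CPM + 1) called 1 at 120 h against 96 h. The cause of these differences was not tested.

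Leaving out single libraries gave 6 to 7 members over the course, 1 at 24 h against 0 h with any of the 4 libraries left out, 2 at 48 h against 24 h likewise, 0 to 2 at 96 h against 72 h (2 without 96 h replicate A) and 0 to 1 at 120 h against 96 h. The pairs against 0 h ran from 35 (without 0 h replicate A) to 62 (without 96 h replicate B), and those against 48 h from 12 (without 48 h replicate B; 14 without 48 h replicate A) to 29 (without 96 h replicate B). The direction turned in 9 of the 520 single-gene values recomputed, of changes that were not called: over single libraries left out, Gata4 at 6 h against 0 h ran from -0.68 to 0.097, Gata6 at 24 h against 0 h from -1.08 to 1.03, Dab2 at 24 h against 0 h from -0.021 to 0.248 and Hnf4a at 120 h against 48 h from -0.56 to 1.49, and for 120 h against 96 h Gata4 ran from -1.01 to 0.076, Gata6 from -1.75 to 0.77 and Cxcr4 from -1.65 to 0.42, the higher value being without 96 h replicate B. With equal medians Gata6 at 24 h against 0 h was 0.12, and, outside the 520, Dab2 at 12 h against 0 h went from -0.13 to 0.0045. Of the 520, 474 kept direction and call, 16 gained a call, 21 lost one and 9 turned direction. The counts over the other lists, 100 for 120 h against 0 h and against 48 h together, ran from 78 to 130.

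A fit with the letter as a replicate block called 1 member at 120 h against 96 h (Dab2, adjusted p = 7.56e-05) and did not call Hnf4a over the course (adjusted p = 0.000120). Among the single-gene changes recomputed with the block, it changed no other call. Values of Hnf4a, Gata6 and Foxa2 near 3 reads are limited by depth.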
